A study of Mus musculus with 6 samples.

Results

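Bhlhe40 and 9 genes of the circadian clock were followed in immortalized bone marrow-derived macrophages (iBMDMs) after LPS. The 10 genes, Bhlhe40, Bhlhe41, Clock, Arntl, Per1, Per2, Cry1, Nr1d1, Nr1d2 and Nfil3, were taken by symbol from the 54532 genes of the expression tables. They were chosen by name with the difference between PGAM5 KD and control cells already known, above all the lower level of Bhlhe40 in PGAM5 KD cells, so their differences in that comparison are given as a description, without a p-value. The study made 3 libraries from control and 3 from PGAM5 KD iBMDMs. Control cells carried shControl and PGAM5 KD cells carried shPGAM5, each brought in by a lentivirus, and every library came from cells kept with LPS (100 ng/ml) for 4 hours. The cells are mouse macrophages that were immortalized by retroviral delivery of the oncogenes v-raf and v-myc, which both groups therefore carry. Pgam5 encodes a phosphatase of the outer mitochondrial membrane, and an effect of its loss cannot be told apart from another difference between the shControl and shPGAM5 cells. The labels do not say whether replicates were separate cultures, and the spread between libraries may be technical. There were no untreated cells and no series of time points, so neither induction by LPS nor the phase of a rhythm was measured.

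The circadian clock of mammals is a loop of transcription factors. CLOCK and ARNTL (also called BMAL1) bind E-boxes and drive the genes for PER and CRY proteins, which then repress CLOCK and ARNTL. In a linked loop the nuclear receptors REV-ERBα (Nr1d1) and REV-ERBβ (Nr1d2) repress genes with RORE sites, among them Arntl and Nfil3. BHLHE40 and BHLHE41 (DEC1 and DEC2) are repressors that bind E-boxes themselves, and NFIL3 (E4BP4) is a repressor that binds D-boxes. Macrophages keep such a clock, and the REV-ERB proteins repress cytokine genes in them, while BHLHE40 is known as a repressor of Il10.

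The libraries held between 18163463 and 24388917 fragments, recovered from FPKM (fragments scaled to exon length and to library depth) and exon length. Pgam5 itself had 14.5 ± 2.27 FPKM in control (SD, n = 3) against 4.87 ± 0.770 FPKM after knockdown (SD, n = 3), and every PGAM5 KD library was below every control library (log2 difference -1.40, adjusted p = 0.000358 from limma). Of 9 macrophage markers, 7 reached 1 FPKM or more, while Mertk was at 0 in every library and Mrc1 was near 0. The 7 neutrophil, 6 fibroblast and 7 lymphocyte markers stayed under 1 FPKM in every library, with 0.328 FPKM the highest value. The summed level of the macrophage markers ran from 2802 to 2894 FPKM in control and from 2526 to 2545 FPKM in PGAM5 KD libraries, a sum made up mostly of Lyz2. The markers did not move together, with Lyz2, Cd68 and Csf1r lower and Fcgr1, Adgre1, Itgam and Cd14 higher, and a median log2 difference of 0.56. The part of these shifts in the differences below was not tested.

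Of the 10 genes, 9 had a mean of at least 1 FPKM over the 6 libraries and entered the fit of all 10540 such genes (limma on log2(FPKM + 1), Benjamini-Hochberg adjustment), and Per2 did not. The threshold was an adjusted p-value under 0.05. With PGAM5 KD, 4 of the 9 passed it as lower (Bhlhe40, Bhlhe41, Nr1d1 and Nr1d2) and 3 as higher (Nfil3, Arntl and Per1). Over all genes tested 14.9% passed as lower and 16.8% as higher. This was 1575 lower and 1771 higher genes, and with FPKM scaled to TPM the split was 2282 lower and 1088 higher. Clock and Cry1 did not pass. With an absolute log2 difference above 1 required as well, 0 of the 9 passed, beside 0.531% of all genes as lower and 0.787% as higher. The same 7 genes had groups of libraries that did not overlap, which was so for 22.9% of all genes in the lower and 24.2% in the higher direction. The choice of the genes used this comparison, and nothing is read from these counts. Their median log2 difference was -0.079, beside 0.013 over all genes tested.

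**Figure D1:**
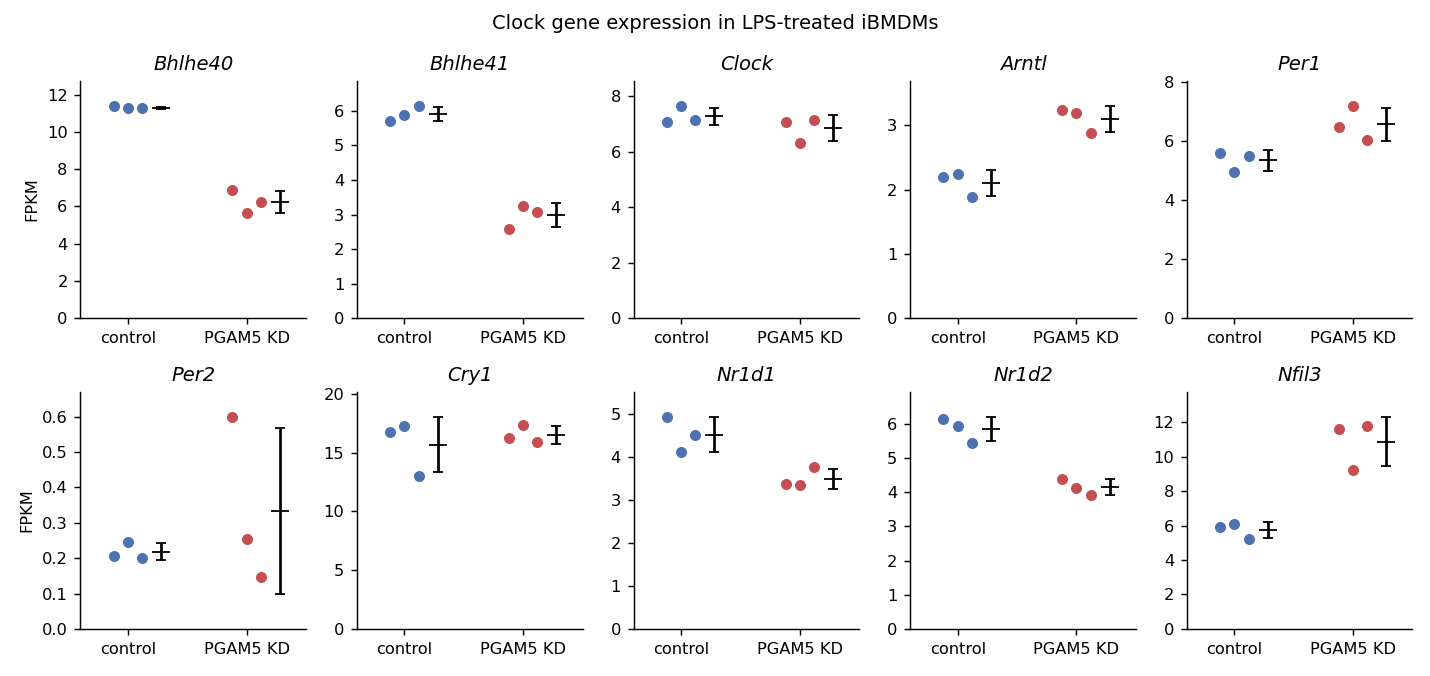
Expression of the 10 clock genes in FPKM (vertical axis, from 0, a scale for each gene) in control (blue) and PGAM5 KD (red) libraries. Points are libraries 1 to 3 from left to right, and bars give the mean and SD (n = 3). For Bhlhe40, Bhlhe41, Nr1d1 and Nr1d2 the PGAM5 KD libraries all lie below the control libraries, for Arntl, Per1 and Nfil3 all above, and Clock, Cry1 and Per2 overlap.

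Bhlhe40 (ENSMUSG00000030103) lies on chromosome 6 of GRCm38 from 108660629 to 108666925, on the plus strand. It had 11.4, 11.3 and 11.3 FPKM in control replicates 1, 2 and 3, against 6.86, 5.66 and 6.21 FPKM in the PGAM5 KD replicates in the same order. The lowest control library was well above the highest PGAM5 KD library. The mean fell by 44.7%, from 11.3 ± 0.0563 to 6.24 ± 0.597 FPKM (SD, n = 3), a log2 difference of -0.77 on the log2(FPKM + 1) scale with a standard error of 0.07. Of all genes tested, 1.65% had a larger fall. With between 484 and 1069 fragments on Bhlhe40 in a library, counting alone would give a coefficient of variation of 3.12% in control cells, where 0.499% was seen, and 3.97% in PGAM5 KD cells, where 9.56% was seen. The antisense gene 0610040F04Rik, which shares 118 bases of exon with Bhlhe40, was listed at 0 in every library.

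Bhlhe41 (ENSMUSG00000030256), which encodes the closely related repressor DEC2, is on chromosome 6, minus strand, between 145858243 and 145865558. Control libraries had 5.72, 5.88 and 6.13 FPKM of it, and PGAM5 KD libraries 2.59, 3.26 and 3.09 FPKM. The mean fell by 49.6%, a log2 difference of -0.80 (standard error 0.08), so both DEC genes were lower in PGAM5 KD cells. Within a library there was 1.91 ± 0.0741 times as much Bhlhe40 as Bhlhe41 per length in control (SD, n = 3) and 2.13 ± 0.469 times as much in PGAM5 KD cells (SD, n = 3), and these ratios overlapped between the groups. PGAM5 KD replicate 1 had the highest Bhlhe40 and the lowest Bhlhe41 of its group, with a ratio of 2.65. Exons of the gene model Gm43909 cover 1280 bases, or 19.0%, of the exons of Bhlhe41 on the opposite strand. Gm43909 itself had at most 17 fragments in a library. Whether the counting kept strand is not given, so fragments of the shared stretch cannot be told apart between the pair, and the effect on the level of Bhlhe41 was not tested.

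Nr1d1 (ENSMUSG00000020889), which encodes REV-ERBα, is on chromosome 11, minus strand, between 98767932 and 98775333. Control libraries stood at 4.94, 4.12 and 4.53 FPKM, and PGAM5 KD libraries at 3.39, 3.35 and 3.77 FPKM. The groups were close but did not overlap, and the log2 difference was -0.30 (standard error 0.08). It passed the threshold narrowly and no longer did in 7 of 14 alternative fits. These included the fits without control replicate 1, control replicate 3, PGAM5 KD replicate 1 or PGAM5 KD replicate 2, with log2 differences of -0.24, -0.29, -0.28 and -0.27. The call was also lost with no filter on low values, by voom on recovered fragments and with a replicate block. The end of Nr1d1 shares 263 bases of exon, 8.55% of its exon length, with the thyroid hormone receptor gene Thra on the opposite strand, and since the strand setting is not given, fragments of that stretch cannot be assigned with certainty. Thra had 1.92 ± 0.566 FPKM in control against 2.21 ± 0.114 FPKM after knockdown (SD, n = 3) and was not past the threshold (log2 difference 0.16, adjusted p = 0.466 from limma).

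Nr1d2 (ENSMUSG00000021775), which encodes REV-ERBβ, is on chromosome 14, minus strand, between 18204054 and 18239127, and shares no exon with another annotated gene. Its level was 6.14, 5.94 and 5.44 FPKM in control, compared with 4.40, 4.11 and 3.93 FPKM in PGAM5 KD libraries. Every PGAM5 KD library was below every control library, with a fall of the mean by 29.0% and a log2 difference of -0.41 (standard error 0.07). The ratio of Nr1d2 to Nr1d1 within a library was 1.30 ± 0.127 in control and 1.19 ± 0.133 in PGAM5 KD cells (SD, n = 3), and the groups overlapped.

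Arntl (ENSMUSG00000055116), the partner of CLOCK, is on chromosome 7, plus strand, between 113207465 and 113314126. Low in control at 2.20, 2.24 and 1.88 FPKM, it reached 3.24, 3.19 and 2.88 FPKM in PGAM5 KD libraries. All PGAM5 KD libraries were above the control libraries, and the mean was 1.47 times as high, a log2 difference of 0.40 (standard error 0.09). Nfil3 (ENSMUSG00000056749) is on chromosome 13, minus strand, between 52967209 and 52981073. Its level of 5.90, 6.09 and 5.21 FPKM in control libraries stood against 11.6, 9.24 and 11.8 FPKM in PGAM5 KD libraries. Among the 9 genes tested this was the rise of largest size, 1.90 times in the mean and 0.81 on the log2 scale (standard error 0.10), and 1.73% of all genes tested had a larger one. The number of fragments on Nfil3 ran from 206 to 249 in control and from 340 to 583 in PGAM5 KD libraries. PGAM5 KD replicate 2 was the lowest of its group, and it remained above every control library.

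Clock (ENSMUSG00000029238), located at 76209868 to 76304792 on the minus strand of chromosome 5, encodes the partner of ARNTL. Its libraries overlapped between the groups, with 7.07, 7.64 and 7.14 FPKM in control against 7.08, 6.31 and 7.15 FPKM after knockdown. The log2 difference was -0.08, with a 95% interval from -0.23 to 0.07 that holds small changes in both directions. With Arntl higher, the ratio of Clock to Arntl per length was 3.21, 3.41 and 3.80 in control and 2.19, 1.98 and 2.49 in PGAM5 KD libraries, which do not overlap.

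Per1 (ENSMUSG00000020893), a period gene at 69095217 to 69109960 on the plus strand of chromosome 11, went from 5.60, 4.95 and 5.50 FPKM in control to 6.46, 7.17 and 6.04 FPKM in PGAM5 KD libraries. The groups did not overlap, and the log2 difference was 0.25 (standard error 0.08). This was the member closest to the threshold, and it no longer passed in 9 of 15 alternative fits, among them those without PGAM5 KD replicate 2 (0.19), control replicate 2 (0.20), control replicate 1 (0.28), control replicate 3 (0.27) or PGAM5 KD replicate 1 (0.26). The other period gene, Per2 (ENSMUSG00000055866), located at 91415982 to 91459324 on the minus strand of chromosome 1, was hardly expressed. It had 22, 29 and 23 fragments in control and 77, 27 and 21 fragments in PGAM5 KD libraries, so that 1 library, PGAM5 KD replicate 1, stood apart. In FPKM the control libraries ran from 0.201 to 0.245 and the PGAM5 KD libraries from 0.147 to 0.598.

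Cry1 (ENSMUSG00000020038), a cryptochrome gene at 85131700 to 85185064 on the minus strand of chromosome 10, was the most highly expressed of the 10 genes per length. Control libraries held 16.8, 17.3 and 13.0 FPKM and overlapped with the PGAM5 KD libraries, which held 16.2, 17.4 and 15.9 FPKM. The log2 difference was 0.08 (95% interval from -0.17 to 0.32), and it turned to -0.04 without control replicate 3.

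Ordered by mean FPKM, control cells had Cry1 (15.7), Bhlhe40 (11.3), Clock (7.28), Bhlhe41 (5.91), Nr1d2 (5.84), Nfil3 (5.73), Per1 (5.35), Nr1d1 (4.53), Arntl (2.11) and Per2 (0.218). The libraries of neighbours overlapped from Bhlhe41 down to Per1, and the other neighbours were separate. Among these 4 genes Bhlhe41 also overlapped with Nfil3, and Nr1d2 with Per1, while every control library had more Bhlhe41 than any had Per1. In PGAM5 KD cells Nfil3 (10.9) stood below Cry1 alone, and Bhlhe40 (6.24) was beside Clock (6.85) and Per1 (6.56). There the libraries of Clock, Per1 and Bhlhe40 all overlapped with each other, as did those of Arntl and Bhlhe41. Of all genes tested, 32.8% had a higher mean over the 6 libraries than Cry1, 50.3% than Bhlhe40 and 83.0% than Arntl.

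Ratios within a library do not change when a whole library is multiplied by a factor. Arntl over Nr1d2 was 0.359, 0.377 and 0.345 in control and 0.735, 0.776 and 0.733 in PGAM5 KD libraries. Nfil3 over Nr1d2 was 0.961, 1.03 and 0.956 in control and 2.63, 2.25 and 3.00 in PGAM5 KD libraries. Neither ratio overlapped between the groups. Both set a gene that REV-ERB is known to repress against a REV-ERB gene, and since all 3 genes were chosen with this comparison known the separation is a description.

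**Figure D2:**
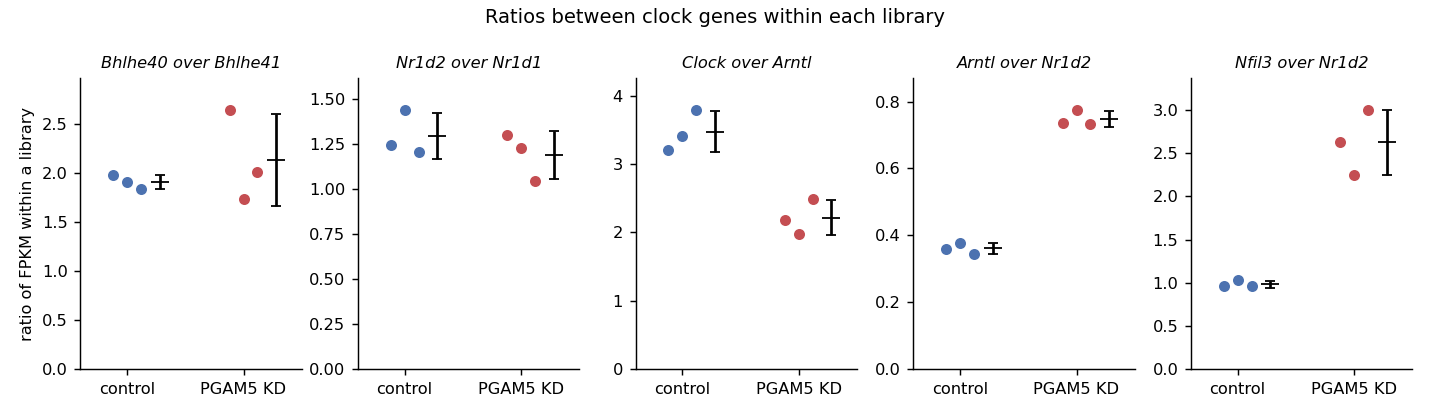
Ratios of FPKM between pairs of clock genes within each library (vertical axis, from 0, a scale for each pair) in control (blue) and PGAM5 KD (red) cells, with the mean and SD (n = 3). Bhlhe40 over Bhlhe41 and Nr1d2 over Nr1d1 overlap between the groups, Clock over Arntl is lower in every PGAM5 KD library, and Arntl and Nfil3 over Nr1d2 are higher.

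The sequences before the start sites were searched for the motifs of these factors. RefSeq promoters of GRCm38.p6, 250 bases before to 50 bases after a start, were at hand for 8 of the 10 genes (12 promoters), not for Bhlhe40 and Per2. An E-box (CACGTG, which reads the same on both strands) was in 3 of the 12 promoters, 1 each of Bhlhe41, Cry1 and Per1, and in 7.15% of all 32851 promoters. By gene this is 3 of 8, beside 8.09% of all genes with a promoter in the table. A RORE core (TAGGTCA or TGGGTCA, either strand) was in 2 of the 12 promoters, 1 each of Arntl and Nfil3, and in 6.45% of all promoters, or by gene in 2 of 8 beside 7.35%. No D-box (TTATGTAA or TTACGTAA, 1.06% of all promoters) and no CRE (TGACGTCA, 1.79%) was in these windows for any of the 8 genes. These motif matches are given because E-boxes are bound by CLOCK with ARNTL and by the DEC proteins, and ROREs by the REV-ERB proteins. Each is written 5′ to 3′ on the strand of its gene, with the motif in capitals.
Bhlhe41 E-box, chr6:145865541-145865600, minus strand: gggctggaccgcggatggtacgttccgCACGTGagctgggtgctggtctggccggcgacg
Cry1 E-box, chr10:85185082-85185141, minus strand: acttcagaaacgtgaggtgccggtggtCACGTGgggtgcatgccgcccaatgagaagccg
Per1 E-box, chr11:69098756-69098815, plus strand: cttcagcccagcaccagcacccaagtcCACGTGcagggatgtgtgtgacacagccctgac
Nfil3 RORE, chr13:52981040-52981078, minus strand: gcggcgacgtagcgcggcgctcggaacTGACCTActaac
Arntl RORE, chr7:113207530-113207558, plus strand: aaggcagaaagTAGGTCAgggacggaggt

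The RORE of Nfil3 reads TAGGTCA on the opposite strand and ends 5 bases before the start, while that of Arntl begins 30 bases after a start. The E-box matches end 147 (Bhlhe41), 54 (Cry1) and 160 (Per1) bases before the RefSeq start. For all 5 genes shown, that start lies inside the GENCODE gene, so distances from the GENCODE start differ. The gap is largest for Per1, where the GENCODE gene begins at 69095217 and the E-box window at 69098756. This E-box thus lies inside the GENCODE gene. Both genes with a RORE core were higher in PGAM5 KD cells. Of the genes with an E-box, Bhlhe41 was lower, Per1 was higher and Cry1 did not pass. All 5 genes were chosen with this comparison known, so nothing is read from their directions, and a part of the motifs was not tested. A match of letters is no measure of binding, and the clock factors' binding was not measured here.

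A further list of 30 clock genes, written from general knowledge of the pathway, was read from the same fit. Earlier results of these data were known when the list was chosen. Of the 30 genes 20 were tested, and 5 passed the same threshold as lower and 2 as higher, beside 14.9% and 16.8% of all genes tested. The median log2 difference of the 20 was -0.046, beside 0.013 over all genes tested. Usp2, a deubiquitinase that acts on clock proteins, fell from 5.62, 5.25 and 6.73 FPKM in control to 2.43, 2.35 and 2.38 FPKM in PGAM5 KD libraries (log2 difference -1.01, standard error 0.09, adjusted p = 0.000343 from limma). Wee1, a mitotic kinase gene driven by the clock in liver, fell (-0.37, standard error 0.06, adjusted p = 0.00522 from limma). Ncor1, the corepressor that REV-ERB proteins recruit, fell as well (-0.21, standard error 0.04, adjusted p = 0.00908 from limma), while Hdac3, the deacetylase that works with it, was not past the threshold (0.04, 95% interval from -0.06 to 0.13). The fall of Sirt1, an NAD-dependent deacetylase gene, was near the limit of the call (-0.33, standard error 0.10, adjusted p = 0.0412 from limma). It passed without control replicate 3 but no longer did when any other single library was left out, with log2 differences from -0.39 to -0.24. Id2, a repressor of E-box factors, rose from 17.6, 17.4 and 16.7 FPKM to 23.4, 25.4 and 24.4 FPKM (0.48, standard error 0.05, adjusted p = 0.000429 from limma), and Nampt, an NAD synthesis gene driven by E-boxes, rose by 0.33 (standard error 0.04, adjusted p = 0.0017 from limma).

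The other 13 tested genes of this list, among them Cry2, Tef, Ciart, Timeless and the casein kinase genes Csnk1d and Csnk1e, had log2 differences from -0.19 to 0.35 and did not pass. The remaining 10 genes were below the filter. Among these, Npas2, which can take the place of Clock, had at most 4 fragments in a library, Arntl2 at most 5 and Rora, the activator at RORE sites, at most 11, and Rorb was at 0 in all 6 libraries. Per3 and the D-box activator Dbp had from 21 to 37 and from 27 to 68 fragments. The D-box activator Hlf had at most 2 fragments, so Tef, at 2.37 ± 0.248 FPKM in control against 2.27 ± 0.165 FPKM after knockdown (SD, n = 3), was the highest of the 3 D-box activator genes. Against Tef, the D-box repressor Nfil3 stood at a ratio of 2.42 ± 0.203 in control and 4.84 ± 0.939 in PGAM5 KD libraries (SD, n = 3), which did not overlap.

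**Figure D3:**
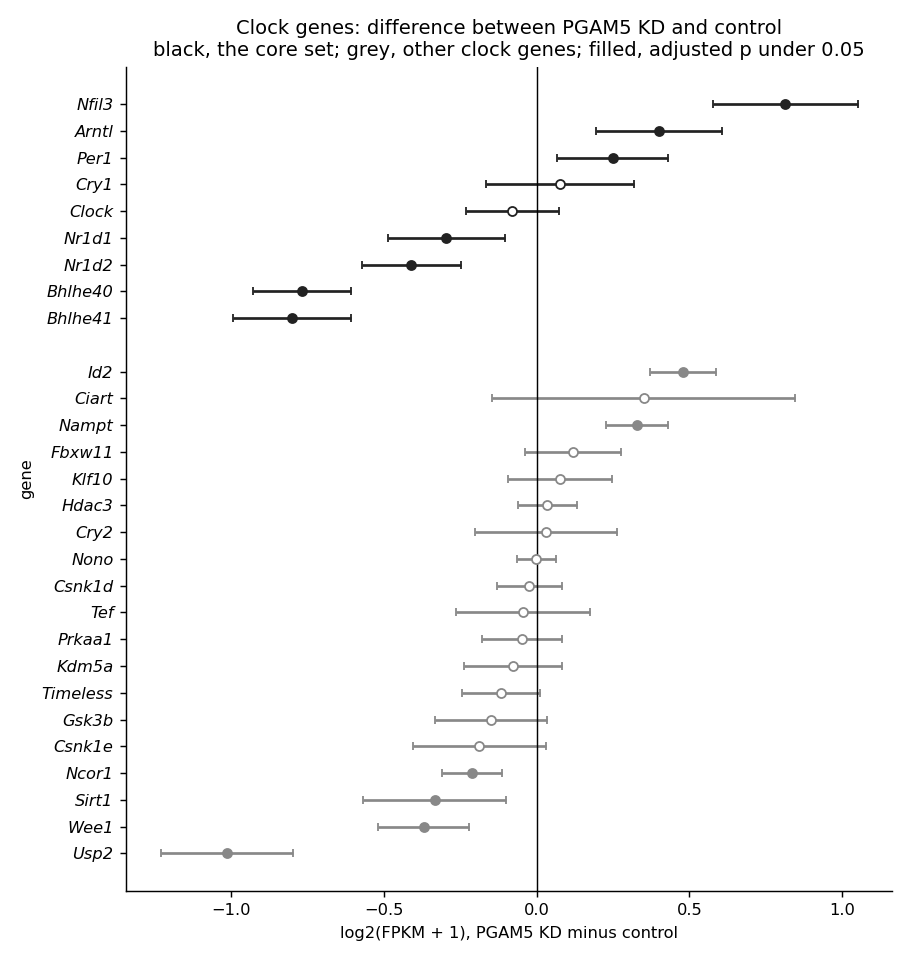
Log2 differences, PGAM5 KD minus control, on the log2(FPKM + 1) scale (horizontal axis) with 95% intervals from limma, for the 9 tested genes of the chosen set (black) and tested genes of the further clock list (grey). Filled points had an adjusted p-value under 0.05. Nfil3 and Bhlhe41 are at the ends of the chosen set (0.81 and -0.80), and Usp2 had the largest fall of the further list (-1.01).

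Genes known as targets of BHLHE40 or of the REV-ERB proteins in immune cells were read from the same fit. Like the clock list, this list was chosen with earlier results of these data known. Of 9 such genes 7 were tested, with 5 past the threshold as higher and 0 as lower by limma, beside 16.8% and 14.9% of all genes tested, and the same counts by voom on recovered fragments. At an unadjusted p under 0.05 (limma) 1 gene, Cx3cr1, was lower, and it also passed the adjusted threshold as lower with TPM scaling, quantile normalization, no filter or a filter at 5 FPKM. Il10, which BHLHE40 is known to repress, had 1.01, 1.63 and 1.29 FPKM in control against 1.84, 1.18 and 1.38 FPKM in PGAM5 KD libraries, from 24 to 53 fragments in each. These overlapped, and the log2 difference was 0.09 (95% interval from -0.27 to 0.45, adjusted p = 0.673 from limma). Maf and Csf2 were below the filter, with at most 13 and 4 fragments in a library. Il1b, a cytokine gene of the BHLHE40 part of the list, rose from 6.24, 6.73 and 6.55 FPKM to 33.8, 32.6 and 30.1 FPKM (log2 difference 2.14, adjusted p = 7.42e-06 from limma).

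Among genes that REV-ERB is known to repress in macrophages, Il6 rose by 2.52, Mmp9 by 0.59, Nlrp3 by 0.34 and Ccl2 by 0.34 on the log2 scale, with adjusted p-values from 2.54e-05 to 0.00104 (limma). Il6 was low in control, at 0.464 ± 0.199 FPKM against 7.38 ± 0.618 FPKM after knockdown (SD, n = 3), and the size of its difference depended on the scale, with 3.78 for a pseudocount of 0.1 and 4.01 by voom on recovered fragments. Cx3cr1, another such gene, was not higher. It had 29.3, 29.3 and 29.1 FPKM in control against 27.6, 26.2 and 27.1 FPKM in PGAM5 KD libraries (log2 difference -0.11, 95% interval from -0.20 to -0.03, adjusted p = 0.0505 from limma). The genes of this list answer to LPS through many other factors, and a part of the clock genes in their differences was not tested.

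The genes most like Bhlhe40 across the 6 libraries, by Pearson correlation of log2(FPKM + 1) among 7091 genes with a mean of at least 5 FPKM, were Slc5a3, Galnt6, Pdxk, Atp6v0d2 and Piezo1, each with r between 0.997 and 0.998. The 6 points fall into 2 groups, so a gene with a fall that is large beside its spread correlates in this way. An r above 0.95 was seen for 614 genes, while 1243 genes passed as lower with a filter at 5 FPKM. Slc5a3, a transporter of myo-inositol, had 10.5, 11.4 and 10.9 FPKM in control, and PGAM5 KD libraries had 5.41, 4.20 and 4.84 FPKM. As in Bhlhe40, PGAM5 KD replicate 1 was the highest and replicate 2 the lowest of the group. Bhlhe41 did not have this order. Slc5a3 was picked by its correlation with Bhlhe40, which favours a shared order.

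Bhlhe40, Bhlhe41, Nr1d2, Arntl and Nfil3 kept their direction and their side of the threshold in every alternative fit in which they were tested, which covered the pseudocount, the filter, scaling, the spread model, recovered fragments, a replicate block and leaving out each library. The log2 difference ran from -0.90 to -0.71 for Bhlhe40, from -0.54 to -0.38 for Nr1d2, from 0.35 to 0.55 for Arntl and from 0.76 to 0.94 for Nfil3. That of Bhlhe41 ran from -1.002 to -0.73, and the lower end, from voom on recovered fragments, is just past a size of 1. All these fits use the libraries whose comparison was known when the genes were chosen. They describe the dependence on processing and are no separate test of the differences.

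**Figure D4:**
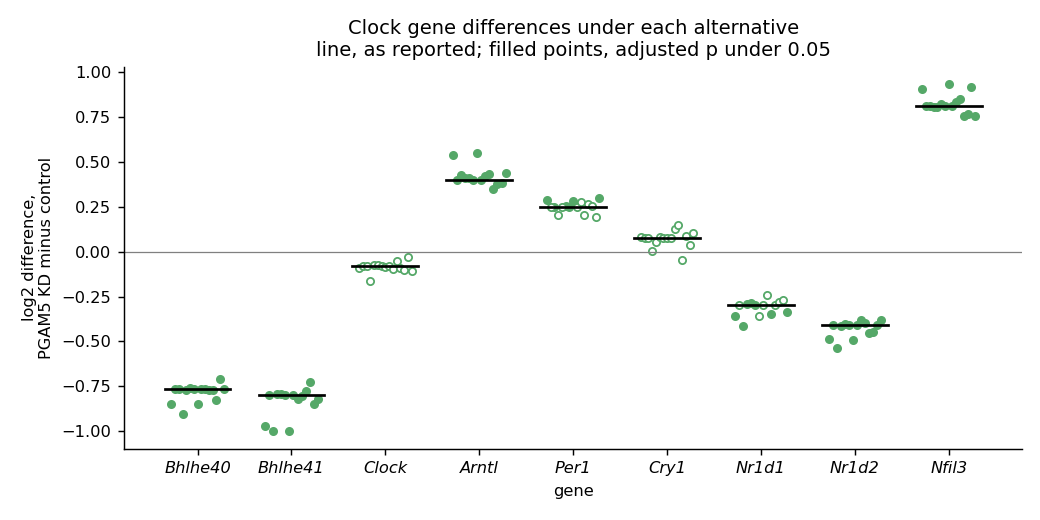
Log2 difference, PGAM5 KD minus control (vertical axis), of the 9 tested clock genes as reported (line) and under each alternative fit (points, filled where the adjusted p-value was under 0.05). Bhlhe40, Bhlhe41, Arntl, Nr1d2 and Nfil3 have filled points throughout, Per1 and Nr1d1 have open points as well, and those of Clock and Cry1 are all open.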

How the data were processed

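RNA-seq libraries were made by the sequencing provider from poly(A) RNA of 3 control and 3 PGAM5 KD iBMDM samples. The submitters' processing notes name HISAT2 2.0.5, featureCounts 1.5.0-p3 and mm10. The annotation and strand setting are not given in the sources used here. The authors deposited a table of FPKM values for each library. Of 54532 gene identifiers 54495 were in GENCODE M21 (GRCm38), which gave symbols, coordinates and exon lengths. FPKM multiplied by exon length gave whole fragments (within 0.01) for 96.8% to 97.1% of values under 1000 fragments, and so the depth.

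Log2(FPKM + 1) of genes whose mean over the libraries reached 1 FPKM was fitted with limma 3.58.1 in R 4.3.3 (mean-variance trend, two-sided, Benjamini-Hochberg over 10540 genes), a test checked on simulated data. The study's further threshold, an absolute log2 fold change above 1, was a second rule. Fold changes on this scale understate those of low genes. An exact permutation test of 3 against 3 libraries cannot go below p = 0.1 and was not used. The members, lists and tests were chosen with earlier results of these data known. The text names all 10 members, genes of the further clock and target lists (2 of the clock list are counted but not reported here), genes sharing exons with a member, and the 5 genes most like Bhlhe40. Pairs of replicates in a group differed by more than counting noise (chi-square between 5.04 and 8.88 per degree of freedom). Same-numbered replicates did not deviate together (correlations from -0.052 to 0.016), so the fit has no block. Figures were drawn with matplotlib 3.10.9 in Python 3.11.15.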

Additional observations from a re-analysis of the deposited data

How the results depend on the processing

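Over 15 alternative fits, between 2340 and 3877 genes had an adjusted p-value under 0.05, against 3346 as reported. Scaling to TPM turned the split from 1771 higher and 1575 lower to 1088 and 2282, and moved the median of all genes by -0.074. Of the clock genes chosen, 7 passed as reported and 3 with a filter at a mean of 5 FPKM, which removed Bhlhe41, Arntl, Nr1d1 and Nr1d2 from the fit. Leaving out each library in turn left from 5 to 7. Per1 lost its call in 9 of 15 fits and Nr1d1 in 7 of 14, and the other tested genes of the set kept theirs. With a replicate block, used as an alternative since the numbers are shared by both groups, 5 of the set and 2652 genes in all passed. Of the further clock genes from 5 to 8 passed, against 7, and of the target genes from 5 to 6, against 5. Per2, Per3 and Dbp, with few fragments, were below the filter and not tested.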
